A study of Mus musculus with 25 samples.

Results

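The cytosolic ribosomal protein genes encode the proteins of the 60S and 40S subunits of the ribosome, the particle that translates messenger RNA outside mitochondria. The genes were taken by symbol, as every entry of the count table that begins with Rplp, with Rpl and a digit or with Rps and a digit, without the S6 kinase genes (Rps6k) and without entries marked -ps, the pseudogene retrocopies. Of the 37085 entries of the table, 92 met this rule. After a filter on low counts 85 were tested: 45 core 60S subunit genes, 30 core 40S subunit genes, 9 paralogs or expressed retrocopies, and Rps19bp1, whose product binds an S19 protein and is not itself a subunit. The other 7 were not tested: Rpl10l had 0 counts over all libraries, which allows up to 3 counts, Rps12l1 had 3, Rpl39l 11, Rpl3l 22, Rps3a3 45, Rpl24 61 and Rpl6l 121. Rpl24 is the only core subunit gene among those 7, while Rpl10l and Rpl39l are testis paralogs and Rpl3l is a striated muscle paralog.

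Each cytosolic ribosome carries 1 copy of nearly every one of these proteins, the P-stalk proteins excepted, so a cell needs their messenger RNAs together. In mammals the messages begin with a run of pyrimidines called the 5′ terminal oligopyrimidine (TOP) tract, through which the kinase complex mTORC1 and the protein Larp1 tie their translation and stability to nutrients and growth signals. The liver, an organ that secretes large amounts of plasma protein, keeps a large stock of ribosomes that shrinks with fasting and grows with refeeding and regeneration. The messages are short, abundant and old in evolution, and the genome holds many of their retrocopies, DNA copies made from the messages, which lack introns and can be close to identical with the parent gene.

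The study followed hepatocytes, the main cell type of the liver, in C57BL/6 mice fed to develop non-alcoholic steatohepatitis (NASH), a fatty and inflamed state of the liver. After collagenase perfusion of the liver, hepatocytes were collected by slow centrifugation, sorted by flow cytometry and lysed, and QuantSeq forward libraries read the 3′ ends of their polyadenylated RNA. The comparison group was mice on a normal diet (0 weeks, n = 5), and the other groups had been on the NASH diet for 1 week (n = 4), 2 weeks (n = 3), 3 weeks (n = 4), 4 weeks (n = 3), 5 weeks (n = 3) and 6 weeks (n = 3), 25 libraries in all. All mice were anesthetized with sodium pentobarbital, and the labels name no transgene and no other drug. The sources used here do not give the diet's composition, the age of the mice or the sorting gate. Nothing in the labels says that each library is 1 mouse, so the p-values speak of the spread among these libraries, which may be technical.

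Library totals ranged from 5281143 to 10015751 counts. Every library carried the hepatocyte markers, 12 of which together held 108500 to 119700 CPM (counts scaled to a common library size) in the normal-diet libraries and 79680 to 87930 CPM at week 5. Markers of several other liver cell types were higher late on the diet, and those of others were not. Of the Kupffer cell markers 15 of 15 were higher at week 5, with summed levels of 200.9 to 760.8 CPM in the normal-diet libraries and 2038 to 2214 CPM at week 5, and 1745 to 1982 CPM at week 6. The counts at week 5 were 16 of 16 for sinusoidal endothelial, 17 of 18 for stellate and 14 of 15 for monocyte and macrophage markers, while 8 of 12 hepatocyte markers were lower. Of the cholangiocyte markers 2 of 3 tested were higher at week 5, but the summed level of the list, 36.6 to 59.3 CPM on the normal diet and 25.5 to 53.1 CPM at week 5, overlapped, and 0 of 5 erythroid markers were called. The lymphocyte list, with 2 of 12 genes tested, had 1 higher and 1 lower at week 6, the lower being Cd4, with 1.96 ± 1.21 CPM (SD, n = 5) on the normal diet and 0.716 ± 0.276 CPM (n = 3) at week 6, a log2 fold change of -1.42 (adjusted p = 0.0323 by edgeR). Of the neutrophil markers 1 of 3 tested was higher at week 5. Week 6 library 2 stood apart by the widest spread of the core genes in its week, with an SD of their log2 levels of 1.45 against 1.14 and 1.19 in the other libraries. The T cell gene Trac and the neutrophil gene Ly6g were at 0 counts in every library. In bulk libraries of this kind fewer cells of a type and less RNA per cell cannot be told apart, and the part of the other cells in the results on ribosomal protein genes, all of which such cells also express, was not tested beyond the fit with a marker term given beside the weekly calls.

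The starts of the genes that the results turn on are shown first, because the TOP tract lies there. RefSeq promoter sequences (build GRCm38.p6) matched 67 of the 92 genes. The search was for a C followed by at least 4 further C or T bases that begins within 10 bases of an annotated start, on the gene's own strand. Such a run was found at 40 of 74 starts of tested members (54.1%) and at 3797 of 11862 starts of all tested genes (32.0%). Below are 30 bases around the start, 15 before it and 15 from it on, with the run in capitals. The first 5 are the genes with a RefSeq start among the 7 that were lower than on the normal diet at each of weeks 4, 5 and 6. The next 2 are examples of the genes lower at weeks 5 and 6 and over the weeks. Rpl4 and Rpl7l1 were so too but are not printed, and their longest runs, 3 and 2 bases, were under the length searched. The last 3 are the S27 genes, whose counts are compared with each other further on, and of these Rps27l was also lower at weeks 5 and 6 and over the weeks.
Rpl38 (chr11:114668565-114668594, plus strand): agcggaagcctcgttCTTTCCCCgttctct
Rpl18 (chr7:45718056-45718085, plus strand): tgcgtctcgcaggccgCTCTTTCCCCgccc
Rpl12 (chr2:32961697-32961726, plus strand): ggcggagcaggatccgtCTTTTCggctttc
Rpl36a (chrX:134585639-134585668, plus strand): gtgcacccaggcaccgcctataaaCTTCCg
Rps28 (chr17:33824548-33824577, minus strand): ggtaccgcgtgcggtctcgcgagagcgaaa
Rpl27a (chr7:109519180-109519209, plus strand): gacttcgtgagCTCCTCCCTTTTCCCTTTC
Rpl14 (chr9:120571502-120571531, plus strand): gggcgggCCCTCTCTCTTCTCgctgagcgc
Rps27 (chr3:90213634-90213663, minus strand): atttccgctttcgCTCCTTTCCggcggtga
Rps27rt (chr9:114982725-114982754, minus strand): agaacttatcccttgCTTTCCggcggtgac
Rps27l (chr9:66946071-66946100, plus strand): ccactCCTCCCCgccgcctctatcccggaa
The run of Rpl38 begins at the annotated start itself, that of Rpl18 1 base after it, and that of Rpl36a 9 bases after it. The run of Rpl27a is 20 bases long and passes the end of the window, that of Rpl14 is 14 bases long, and Rps28 has no run of the length searched within these bases. Rps27 and its retrocopy Rps27rt share the 14 bases ctttccggcggtga at their starts, whereas the longest stretch that Rps27 shares with its paralog Rps27l in these windows is 5 bases. A match describes these letters only, and annotated starts can lie some bases from the start a cell uses.

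All 92 genes together held 1.51% ± 0.17 (SD, n = 5) of raw counts on the normal diet, between 1.28% and 1.72%. Their share was 1.40% ± 0.090 (n = 4) at week 3 and 1.66% ± 0.036 (n = 3) at week 5. After scaling for library composition, with factors that set the bulk of genes level between libraries, the order of the groups was another. The summed level was 16660 ± 1327 CPM (n = 5) on the normal diet, 15720 ± 1189 (n = 4) at week 1, 15240 ± 984.6 (n = 3) at week 2, and between 14400 and 14540 at weeks 3 to 6. At week 5 the 3 libraries lay between 14240 and 14690 CPM, below the lowest of the normal-diet libraries at 14850 CPM, so that on the scaled values the family was lower and on the raw share it was at the upper end of the normal-diet range. The scaling factors themselves averaged 0.906 on the normal diet, 1.14 at week 5 and 1.12 at week 6. Normal-diet library 5 and week 4 library 3 had the smallest raw shares (1.28% and 1.24%) and the largest shares of mitochondrially encoded counts (27.4% and 27.1%).

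**Figure D1:**
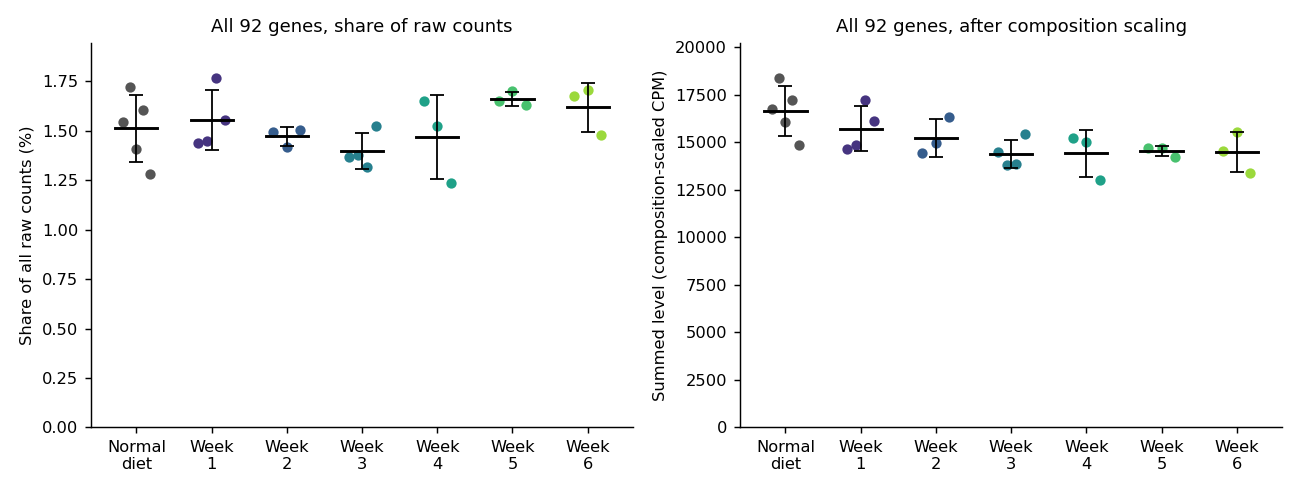
Share of all raw counts in percent (left) and summed composition-scaled CPM (right) of the 92 ribosomal protein genes, by group, from the normal diet to week 6; points are libraries, bars the mean and SD. The week 5 mean is 1.66% on the left, above the 1.51% of the normal diet, and 14540 CPM on the right, below the normal diet at 16660 CPM, so the direction depends on the scaling.

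The 3′ kit makes 1 tag per transcript, so levels need no length correction between genes, but they are levels of table entries: a member whose 3′ end is shared with copies can have more or fewer counts than its messages would give. The entry with the highest level was Rplp1, a P-stalk protein that helps recruit elongation factors, with a mean of 749.7 CPM over the 7 groups. Rps29, a small zinc-binding 40S protein near the mRNA channel, followed with 536, Rps26, which sits at the mRNA exit, with 524 and Rpl37, a small 60S protein, with 510.1 CPM. The median core gene had 177.5 CPM, with 156 for 60S and 213 for 40S genes. Of the core genes 56 had at least 100 CPM, 10 had 50 to 100 and 9 had under 50, the lowest being Rps6, the 40S protein phosphorylated by S6 kinase, with 8.32 CPM. Entries for Rps6 pseudogenes held 41.9% of the counts of that gene and its copies together. The 10 most abundant genes held 29.9% of the family's sum.

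**Figure D2:**
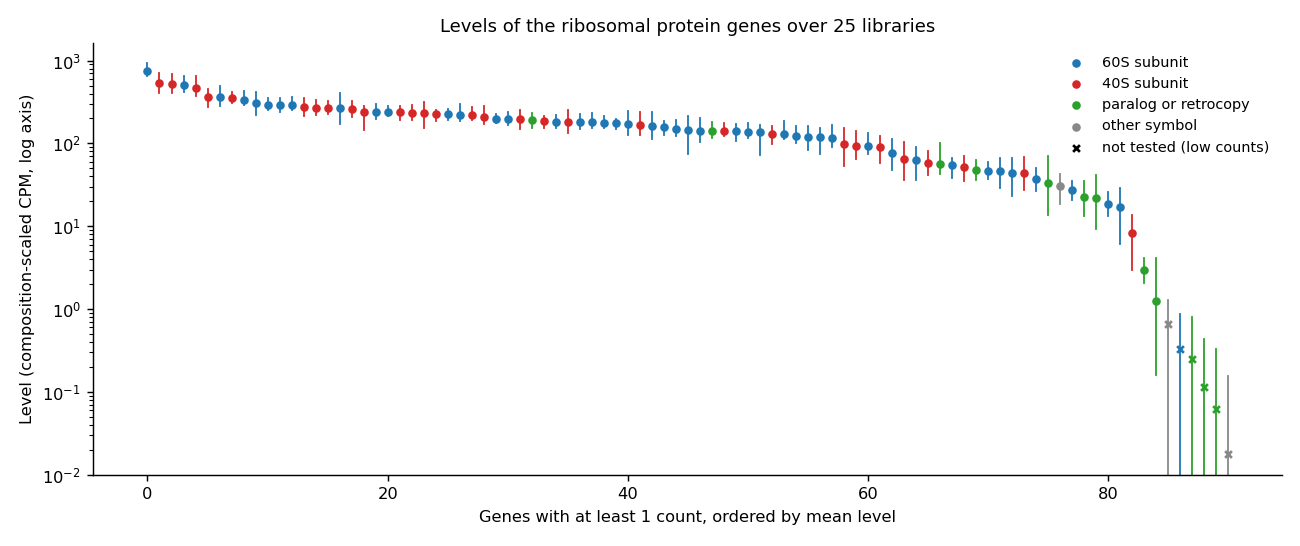
Level of each ribosomal protein gene with at least 1 count, in composition-scaled CPM on a log axis, ordered by mean level; points are means over the groups, lines run from the lowest to the highest of the 25 libraries, and crosses mark genes with too few counts to test. Libraries with 0 counts are drawn at the bottom of the axis. Core levels run from 8.32 CPM (Rps6) to 749.7 CPM (Rplp1), with most paralogs and retrocopies in the lower part.

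The 4 most abundant genes in each library show how far the groups overlapped. Rplp1 had 726, 793, 845, 866 and 894 CPM on the normal diet, 669, 729 and 738 at week 5, followed by 655, 724 and 815 at week 6. Rps26 had 482, 577, 594, 635 and 688 CPM on the normal diet and 477, 480.4 and 546 at week 5. Rpl37 had 494, 557, 571, 621 and 649 CPM on the normal diet and 465, 478 and 514 at week 5. In each of these 1 or 2 of the 3 week 5 libraries lay below the normal-diet range, and none of the genes was called in any week. Rps29, also not called, had 420.3, 516, 542, 584 and 643 CPM on the normal diet, 561, 578 and 622 at week 5, followed by 434, 572 and 702 at week 6.

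On composition-scaled counts, single ribosomal protein genes were lower from week 4 on in the sorted hepatocyte libraries of the NASH diet. The amount was modest, and no member was called higher. At week 5, 25 of 85 members (29.4%) were lower, among them Rpl38, a 60S surface protein, and Rpl7. The median member was at 0.939 times the normal-diet level at week 1 and at 0.857 to 0.87 times from week 3 on, a direction that scaling by library size alone turns at weeks 1, 5 and 6. Calls are edgeR quasi-likelihood tests with a Benjamini-Hochberg adjusted p under 0.05 over 11869 genes.

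At week 1, 0 of 85 members were called in either direction, against 0.977% of all tested genes lower and 0.219% higher. At week 2 again 0 were called, against 0.657% lower and 0.227% higher, and at week 3 again 0, against 0.607% lower and 0.244% higher. At an unadjusted p under 0.05 the members lower in these weeks numbered 4, 10 and 41 and those higher 0, 0 and 0, and DESeq2 called 2 at week 3. At week 4, 8 members (9.41%) were lower, against 2.86% of all tested genes, and 0 higher, against 5.44%. At week 5 the 25 lower members (29.4%) compare with 16.3% of all tested genes, and the 0 higher with 19.1%. At week 6, 15 members (17.6%) were lower, against 10.5%, and 0 higher, against 16.3%. Leaving out 1 library at a time gave 1 to 9 calls at week 4, 14 to 27 at week 5 and 9 to 18 at week 6, with 18 at week 6 without the library that stood apart. Without normal-diet library 5 and week 4 library 3, which had the largest mitochondrial shares, the counts were 4, 17 and 10.

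The median log2 fold change of the 85 members was -0.09, -0.13, -0.22, -0.21, -0.20 and -0.22 in weeks 1 to 6, that of all genes between -0.053 and 0.021. Negative values were found for 69, 80, 81, 75, 74 and 80 of the 85 members. Scaling by library size alone moved the median of all genes to 0.28 at week 5 and 0.26 at week 6 and the median member to 0.13 and 0.077 (0.033 at week 1), so the sign of the members' median at weeks 1, 5 and 6 flips with the scaling. The distance of the median member from the median gene was -0.15 at week 5 and -0.18 at week 6 under either scaling, and -0.11 at week 1. A scaling factor moves all genes of a library alike, so this distance could hardly differ between scalings. The distance did differ with the filter. At weeks 5 and 6 it was -0.101 and -0.129 with at least 5 CPM in 3 libraries, and -0.197 and -0.247 with no filter. On the same relative scale 72, 80, 81, 73, 67 and 77 of the 85 members lay below the median gene in weeks 1 to 6. Under library size 4 members were called higher at week 5 and 0 lower, where 3779 genes in all were called higher and 365 lower, against 2268 and 1929 under composition scaling. Those 4, named here after their values were seen, were all 40S genes, Rps12, Rps15a, Rps23 and Rps29, with log2 fold changes of 0.37, 0.25, 0.64 and 0.45. At week 6 library size alone gave 3260 genes higher and 231 lower, against 1929 and 1246. Under library size 1 member was still lower at week 4 and 1 at week 6, the latter being Rps23rg1.

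**Figure D3:**
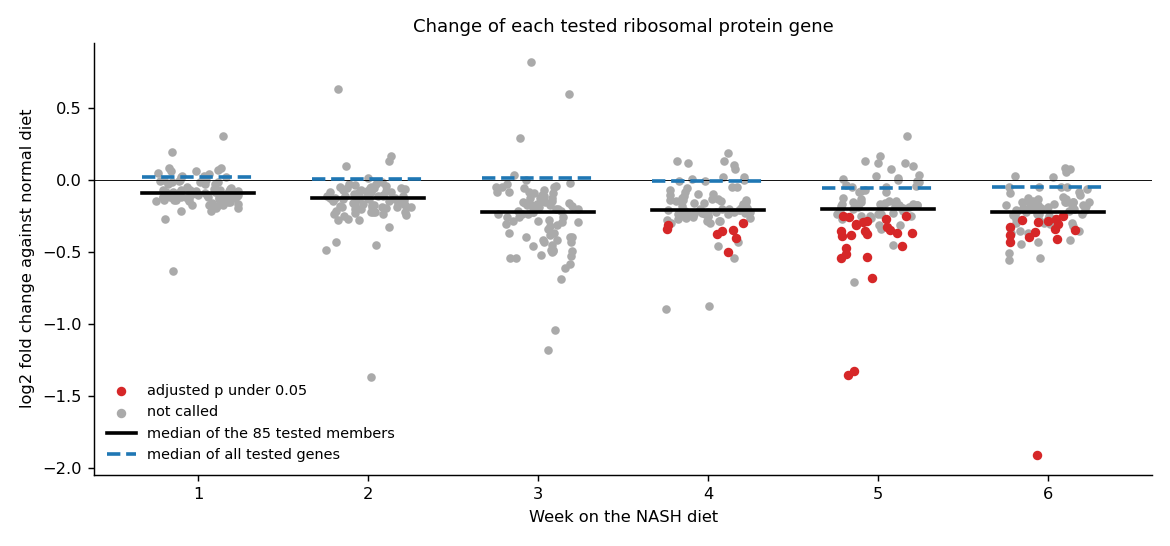
Log2 fold change against the normal diet (vertical axis) of each of the 85 tested members by week on the NASH diet, on composition-scaled counts; red points have an adjusted p under 0.05, the black line is the median of the members and the dashed blue line that of all tested genes. No red point lies above 0, with 8 red points at week 4, 25 at week 5 and 15 at week 6; under library size alone the medians of the members at weeks 1, 5 and 6 lie above 0.

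In all 25 members were called lower in at least 1 week and 16 in at least 2. Of these 15 were called at both weeks 5 and 6, and 7 at each of weeks 4, 5 and 6, among them Rpl7, Rpl12, Rpl18, Rpl36a, Rpl38 and Rps28. Adding a score of Kupffer, endothelial and stellate markers, without the monocyte list, to the model as a term left 0 members called in every comparison. The medians were then -0.33 at weeks 5 and 6. The same term left 0 of all tested genes higher and 10 lower at week 5, and 2 higher and 16 lower at week 6, so the 0 says little of the members. The score ran from 2.43 to 4.16 in the normal-diet libraries, from 5.64 to 5.92 at week 5 and from 5.38 to 5.70 at week 6, so the score and the 2 late weeks cannot be told apart.

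Among the functional classes of the 60S subunit, the P-stalk proteins, which form the arm that binds elongation factors, had 0 of 3 members called in any week. Rplp0, the stalk base, had 173, 195, 196, 203 and 228 CPM on the normal diet and 171, 176 and 178 at week 5. Rplp2 had 311, 372, 388, 427 and 493 CPM on the normal diet and 324, 344 and 352 at week 5. The median log2 fold changes of the 3 stalk genes, -0.22, -0.21 and -0.15 in weeks 4 to 6, were close to those of the family. Rpl5 and Rpl11, which bring the 5S rRNA into the subunit and, when free, bind Mdm2, were not called either, with log2 fold changes of -0.19 ± 0.12 (SE, adjusted p = 0.233) and -0.25 ± 0.099 (adjusted p = 0.0509) at week 5 by edgeR. Of the 3 proteins next to the peptidyl transferase centre and the P site, Rpl8 was lower at week 5 (-0.28 ± 0.088), whereas Rpl3 (-0.27) and Rpl10 (-0.17) were not called.

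The proteins that line the exit tunnel or its rim had 3 of 8 genes lower at week 5, against 16.3% of all tested genes, and 1 of 8 at week 6, near the 10.5% of all tested genes. Rpl26 had 192, 195, 196, 204 and 215 CPM on the normal diet and 155, 158 and 161 at week 5, with no overlap. Rpl4, whose loop reaches into the tunnel, had 314, 324, 339.5, 387 and 413 CPM on the normal diet, 248, 261 and 261 at week 5, followed by 219, 243 and 331 at week 6, where 1 library lay inside the normal-diet range. Rpl23a, a docking site for factors that handle nascent chains, had 60.3, 62.1, 66.3, 89.4 and 91.2 CPM on the normal diet, 44.3, 45.7 and 48.3 at week 5, followed by 38.1, 71.3 and 74.0 at week 6. Its groups parted at week 5 (-0.68 ± 0.24) and overlapped again at week 6 (-0.27 ± 0.23, adjusted p = 0.425 by edgeR). The 5 other tunnel genes, Rpl17, Rpl19, Rpl31, Rpl35 and Rpl39, were not called, with week 5 values from -0.34 (Rpl35) to -0.0090 (Rpl19). Within groups Rpl26, Rpl4 and Rpl23a went up with the share of counts on -ps copies, described below (r of 0.525, 0.847 and 0.775). For the 5 others r ran from -0.598 (Rpl19) to 0.099 (Rpl17). That share averaged 3.32% on the normal diet and 2.03% at week 5, and its part in these values was not tested.

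Among the 29 other 60S genes 11 were lower at week 5, against 16.3% of all tested genes, and 8 at week 6, against 10.5%. Rpl38 had 197, 198, 208, 217 and 231 CPM on the normal diet, 155, 159 and 162 at week 4, 156, 159 and 173 at week 5, followed by 159, 169 and 192 at week 6. Every library of weeks 4, 5 and 6 lay below the lowest normal-diet library, and the log2 fold change was -0.41 ± 0.088 at week 4 (adjusted p = 0.00799), -0.37 ± 0.088 at week 5 (0.00202) and -0.28 ± 0.088 at week 6 (0.0195) by edgeR. Rpl38 is known for a mouse mutation with skeletal patterning defects. Rpl7 had 262, 264, 273, 278 and 295 CPM on the normal diet, 199, 219.5 and 226 at week 4, 204, 219 and 222 at week 5, followed by 217, 218 and 249 at week 6, again with no overlap. Rpl36a had 152, 164, 179.5, 186 and 190.4 CPM on the normal diet, 145, 147 and 147 at week 5, followed by 124, 143 and 144 at week 6, and the change at week 6 was -0.35 ± 0.090 (adjusted p = 0.00503 by edgeR). Its groups were also apart, though by less than 10 CPM at week 5. Under scaling by library size alone the sign turned for Rpl36a at week 5 (0.079) and for Rpl7 (0.031) and Rpl38 (0.020) at week 6.

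Rpl14 had 172, 173, 174, 179.9 and 187 CPM on the normal diet, 132, 141 and 150.3 at week 5, followed by 125, 138 and 145 at week 6. Rpl32, long used as a reference gene, had 294, 301, 321, 324 and 350.5 CPM on the normal diet, 258, 265 and 268 at week 5, followed by 236, 269 and 277 at week 6. Both genes had no late library inside the normal-diet range. The remaining 60S genes called at week 5 were Rpl12, Rpl13, Rpl13a, Rpl18, Rpl21 and Rpl27a, with log2 fold changes between -0.51 (Rpl13) and -0.25 (Rpl21). The members with the most negative week 6 values above 10 CPM were Rpl37rt, Rps4l, Rpl7a and Rpl15, none of them called. For Rpl7a (-0.51 ± 0.25) and Rpl15 (-0.45 ± 0.28) the lowest library was week 6 library 2, which had 74.7 CPM of Rpl7a against 108 and 166 in the other libraries of that week, and 6.04 CPM of Rpl15 against 15.3 and 20.8. On the normal diet Rpl7a had 140.5, 146, 161, 175 and 203 CPM and Rpl15 15.3, 17.3, 19.6, 20.5 and 23.8 CPM. That is the library with the widest spread of core genes.

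In the 40S subunit 4 of 30 core genes were lower at week 5 and 2 of 30 at week 6, in both weeks a share below that of all tested genes (16.3% and 10.5%). The regulatory proteins that carry kinase or ubiquitin sites had 1 of 3 lower at week 5, and the mRNA channel and decoding proteins Rps2, Rps3, Rps15 and Rps23 had 0 of 4. Rps20, a protein of the 40S head that is ubiquitinated on stalled ribosomes, had 260.4, 271, 275, 322 and 331 CPM on the normal diet and 222, 224 and 229 at week 5, without overlap, and 252, 266 and 279.8 at week 6, with overlap. Rps23, a decoding-centre protein, had 56.8, 62.2, 65.1, 72.7 and 78.5 CPM on the normal diet, 35.8, 41.5, 46.2 and 60.1 at week 3 and 77.0, 82.6 and 89.0 at week 5, where 2 of 3 libraries lay above the highest normal-diet library. Its week 5 value was 0.30 ± 0.22 (adjusted p = 0.313 by edgeR). Rps6 had 7.98, 8.88, 9.64, 10.8 and 10.9 CPM on the normal diet and 2.98, 3.84, 4.74 and 6.83 at week 3, with no overlap, and 8.20, 10.1 and 12.2 at week 5. Its week 3 value was -1.04 ± 0.36 (adjusted p = 0.206, edgeR). Within groups Rps23 and Rps6 went down as the share of counts on -ps copies, described below, went up (r of -0.822 and -0.666). Rps20 went up with it (0.643). That share averaged 3.32% on the normal diet, 5.38% at week 3 and 2.03% at week 5, and its part in these values was not tested.

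Of the 23 other 40S genes 3 were lower at week 5, against 16.3% of all tested genes, and 2 at week 6, against 10.5%. Both counts included Rps28. Rps28, described here after its values were seen, had 294, 299, 304, 319 and 321 CPM on the normal diet, 229.5, 244 and 270.1 at week 4, 253, 253 and 267 at week 5, followed by 239.9, 263 and 272 at week 6. Every library of the 6 NASH diet weeks lay below the lowest normal-diet library. Its changes were -0.31 ± 0.088 at week 4 (adjusted p = 0.0304), -0.25 ± 0.088 at week 5 (0.0257) and -0.25 ± 0.088 at week 6 (0.0348) by edgeR. Under library size alone the sign turned at week 5 (0.080) and week 6 (0.052). The call was also lost without normal-diet library 2 in each of these weeks (-0.30, -0.24 and -0.23), without normal-diet library 1 or week 4 library 1 or 3 at week 4 (-0.32, -0.30 and -0.28), without normal-diet library 5 or week 5 library 2 or 3 at week 5 (-0.23, -0.25 and -0.25), and without normal-diet library 4 or 5 or week 6 library 3 at week 6 (-0.24, -0.24 and -0.20). The 40S genes with the largest positive values at week 6, Rps14, Rps4x and Rps29, were not called. Rps14 had 376, 458, 464, 528 and 549 CPM on the normal diet and 388, 468 and 654 at week 6, the highest value again from week 6 library 2.

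Between the subunits, 6 of 45 60S genes (13.3%) and 2 of 30 40S genes (6.67%) were called lower at week 4, against 2.86% of all tested genes. At week 5 these numbers were 15 (33.3%) and 4 (13.3%), against 16.3%. At week 6 they were 9 (20%) and 2 (6.67%), against 10.5%. The difference between the subunits was not tested. The median log2 fold changes were -0.23 for 60S and -0.15 for 40S genes at week 5, and -0.25 and -0.18 at week 6. The ratio of summed 40S to summed 60S levels, which no scaling factor touches, was 0.774 ± 0.022 (SD, n = 5) on the normal diet and 0.829 ± 0.013 (n = 3) at week 5. The week 5 libraries, 0.814 to 0.838, lay above the highest normal-diet library at 0.795, and at week 6 the ratio was 0.819 ± 0.036 (n = 3) with 1 library inside the normal-diet range. At weeks 1 to 4 its means were 0.79, 0.788, 0.775 and 0.80. The ratio also moved with library features: in normal-diet library 5, with the largest mitochondrial share, it was 0.743, and in week 1 library 3, with the smallest retrocopy share, 0.821.

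**Figure D4:**
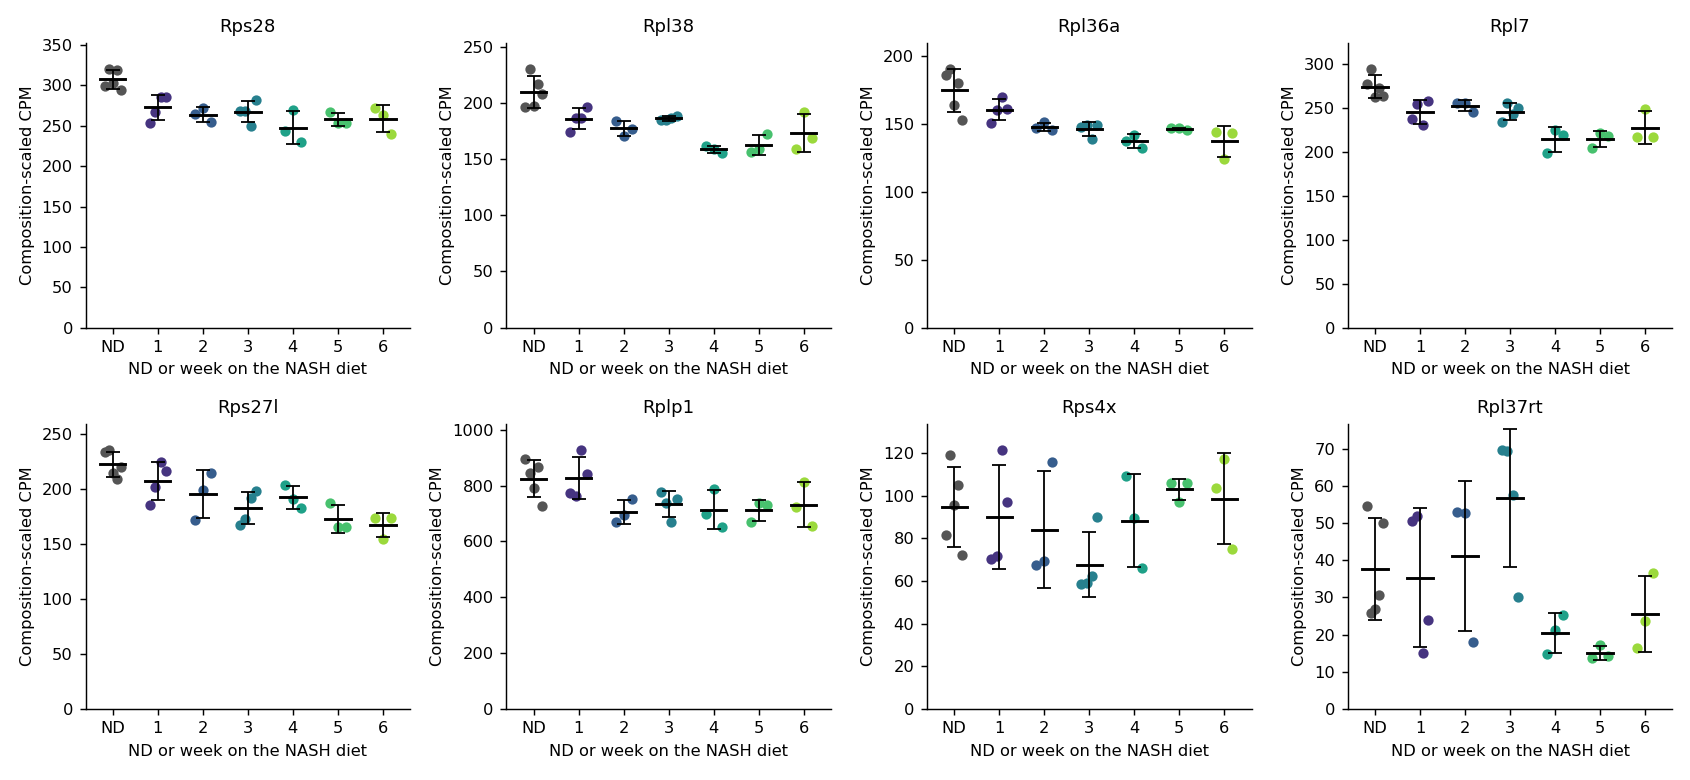
Composition-scaled CPM of 8 members in each library (points) by group, ND being the normal diet and 1 to 6 the weeks on the NASH diet, with group means and SD as bars; the vertical axes start at 0. Rps28, Rpl38, Rpl36a and Rpl7 lie below every normal-diet library at weeks 4 to 6, Rplp1 and Rps4x overlap the normal diet, and Rpl37rt spreads from 13.6 to 69.8 CPM; under library size alone the change has the other sign for Rpl36a at week 5, for Rpl7 and Rpl38 at week 6 and for Rps28 at both.

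Over the weeks on the diet, the slope of the log2 level from week 1 to week 6 was negative and called in 14 members (16.5%) against 14.9% of all tested genes, and positive and called in 0, against 18.9%. Rpl14, Rpl27a, Rpl32, Rpl4, Rps27l and the retrocopy Rpl37rt (-0.23 ± 0.078 per week) were among those called. Any difference among the 7 groups was called for 13 members (15.3%), against 29.9% of all tested genes, a smaller share than the background. The largest positive slopes, of Rps4x (0.055), Rps23 (0.049), Rps29 (0.031) and Rpl29 (0.026), were not called. Rpl29 had 42.1, 45.3, 46.4, 56.4 and 66.4 CPM on the normal diet and 36.6, 48.5 and 62.5 at week 6.

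Some core proteins have a paralog whose product can take their place in the ribosome. Rps27l, a paralog of Rps27 induced by p53, had 209, 214, 219.6, 234 and 236 CPM on the normal diet, 165, 165 and 187 at week 5, followed by 155, 174 and 174 at week 6, with no overlap, and fell at week 6 by 0.41 ± 0.10 on the log2 scale (adjusted p = 0.00338 by edgeR). Rps27 itself had 149, 156, 172, 203 and 232 CPM on the normal diet and 177, 202 and 222 at week 5 and was not called. Rps27l held 55.3% ± 4.6 (SD, n = 5) of the pair's counts on the normal diet and 46.4% ± 1.7 (n = 3) at week 5, with 50.4% as the lowest normal-diet and 48.3% as the highest week 5 library. Within groups Rps27 went down as the share of counts on -ps copies, described below, went up (r of -0.899, against -0.597 for Rps27l). That share averaged 3.32% on the normal diet and 2.03% at week 5, and its part in this shift was not tested. For Rpl36a and Rpl36al, which encode nearly the same protein, both members were lower at weeks 5 and 6, and the share of Rpl36al stayed between 46.0% and 50.7% as group means. Rpl36al had 139, 156, 159, 175 and 182 CPM on the normal diet and 116, 124 and 134 at week 5.

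Rpl7l1, a nucleolar relative of Rpl7, had 52.0, 53.3, 54.7, 57.0 and 63.1 CPM on the normal diet and 36.0, 42.4 and 44.1 at week 5, and fell at weeks 5 and 6 as Rpl7 did. Its share of the pair was 16.9% on the normal diet and 16.0% at week 5. Rpl22l1, which in other tissues rises when Rpl22 is lost, had 56.3, 64.2, 64.9, 70.5 and 79.5 CPM on the normal diet and 43.5, 47.7 and 57.9 at week 6. Rpl22 had 166, 185, 186, 187 and 198 CPM on the normal diet and 157, 165 and 173 at week 6, and it was called by its slope (-0.043 per week, but 0.005 under library size alone) and in no single week. The share of Rpl22l1 in the pair was 26.7% ± 3.1 (n = 5) on the normal diet and 23.1% ± 3.3 (n = 3) at week 6, and at week 6 its level and its share overlapped the normal diet. At week 2 Rpl22l1 had 44.4, 51.6 and 53.6 CPM and at week 3 42.5, 45.9, 54.7 and 56.1, all below the lowest normal-diet library, and its week 2 share, 18.7% to 22.4%, lay below the normal-diet minimum of 23.3%. Rpl22l1 was not called in week 2 (-0.43 ± 0.19, adjusted p = 0.372 by edgeR) or week 3 (-0.43 ± 0.18, 0.298).

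Rps4l, a relative of the X-linked Rps4x, had 19.7, 22.3, 24.0, 26.9 and 31.7 CPM on the normal diet and 13.4, 17.9 and 20.0 at week 6, with a called slope of -0.11 ± 0.038 per week (adjusted p = 0.0207 by edgeR). Its share of the pair was 21.4% ± 6.0 (n = 5) on the normal diet and 14.8% ± 0.29 (n = 3) at week 6. The week 6 libraries, 14.55% to 15.12%, lay inside the normal-diet range of 14.16% to 28%. Within groups Rps4x went down as the share of counts on -ps copies, described below, went up (r of -0.944, against 0.308 for Rps4l). The part of the copies in the pair's values was not tested. Rps3a2, beside Rps3a1, stayed near 3 CPM with a week 6 change of -0.046 ± 0.26. Rps23rg1, a retrocopy of Rps23, had 1.56, 1.63, 2.02, 2.76 and 4.16 CPM on the normal diet and 0.327, 0.735 and 0.862 at week 6, with a log2 fold change of -1.91 ± 0.53 (adjusted p = 0.00832 by edgeR). At these levels, under 5 CPM in every library, it rests on few counts. On a scale set by the members themselves it was the 1 member lower at week 6, and Rps23 the 1 member higher at week 5, again seen after the fact.

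The members share sequence with other entries of the table, so that counts of single members depend on how reads with several matches were treated. The table held 251 -ps entries for 58 of the symbol stems, of which 83 had 0 counts and 46 passed the filter. For 12 stems the -ps entries held over 10% of the counts of gene and copies together, with 41.9% for Rps6, 40.4% for Rpl10, 36.0% for Rpl10a and 29.9% for Rpl36. In the GENCODE vM21 transcripts (GRCm38), the last 200 bases of 53 of 78 members (67.9%) shared at least 1 stretch of 50 bases with another gene, against 597 of 10721 tested genes (5.57%). For 35 members (44.9%) at least 50% of those bases were shared, against 2.05% of tested genes. Rpl36a and Rps27 shared 100% with 6 other genes each, while Rpl4, Rpl14, Rpl37 and Rps27l shared none. Sharing none by this search did not mean having no counted copies. Rpl14, Rpl28 and Rpl31 shared none, yet -ps entries held 20.6%, 16.4% and 14.9% of the counts of these genes and their copies. Of the members called whose 3′ end could be read, 7 of 7 at week 4, 13 of 20 at week 5 and 9 of 12 at week 6 shared some bases, and 6, 9 and 6 of them shared at least 50%. Of the 23 core members that shared none, 0 were called at week 4, 5 at week 5 and 2 at week 6, and their median log2 fold changes were -0.22, -0.19 and -0.20. Of the 33 core members that shared at least 50%, 6, 8 and 5 were called, with medians of -0.19, -0.18 and -0.27. The part of shared sequence in the calls was not tested.

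The part of the counts that fell on copies differed between libraries of 1 group. It was taken as the -ps share of all member and -ps counts, and ran from 1.58% to 6.70% over the 25 libraries. The group means were 3.32% ± 1.18 (SD, n = 5) on the normal diet, 5.38% ± 1.52 (n = 4) at week 3, 2.03% ± 0.26 (n = 3) at week 5 and 3.18% ± 1.00 (n = 3) at week 6. Several members followed it within groups: the correlation of the log2 level with this share after removing group means was 0.979 for Rpl37rt and 0.97 for Rps27rt, and -0.944 for Rps4x and -0.942 for Rpl37a. Over the 75 core members the median was -0.548, with 45 under -0.5 and 8 over 0.5. These are descriptions over 25 libraries whose member counts enter both measures.

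Rpl37rt, a retrocopy of Rpl37, had 25.9, 26.9, 30.6, 50.2 and 54.8 CPM on the normal diet, 30.2, 57.6, 69.5 and 69.8 at week 3, 14.8, 21.3 and 25.3 at week 4, 13.6, 14.1 and 17.1 at week 5, followed by 16.5, 23.7 and 36.6 at week 6. The normal-diet libraries fell into a pair above 50 CPM and 3 others at 30.6 CPM or less, and week 5 lay below all of them (-1.33 ± 0.45, adjusted p = 0.0262 by edgeR). With the copy share as a term in the model, a setting chosen after the data were seen, its week 5 change was -0.68. Rps27rt had 9.83, 15.2, 15.4, 25.2 and 31.2 CPM on the normal diet and 18.9, 34.5, 41.1 and 41.5 at week 3, followed by 14.4, 17.4 and 27.2 at week 6, and was not called. Rps4x had 72.1, 81.6, 95.5, 105 and 119 CPM on the normal diet, 58.7, 59.2, 62.5 and 90.2 at week 3 and 97.3, 106 and 106 at week 5.

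With the copy share as a term the members lower numbered 19 at week 4, 48 at week 5 and 31 at week 6, with 0 higher. Of all 11869 tested genes 459, 2053 and 1653 were then lower in these weeks and 594, 2267 and 2073 higher. The lower members included 8 of the 8, 23 of the 25 and 15 of the 15 called without the term. The week 3 median went from -0.22 to -0.12. The term is built in part from the counts it is used to adjust.

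**Figure D5:**
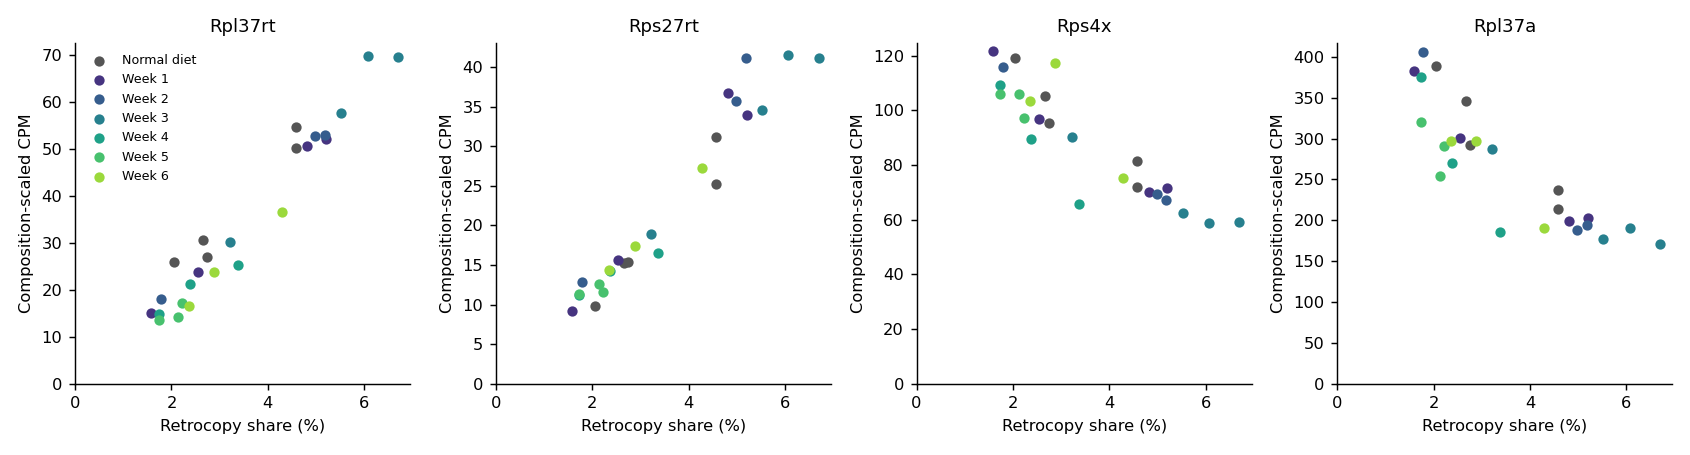
Composition-scaled CPM of Rpl37rt, Rps27rt, Rps4x and Rpl37a (vertical axes, from 0) against the share of -ps retrocopy counts among member and -ps counts (percent, horizontal axes); each point is 1 of 25 libraries, coloured by group. Rpl37rt and Rps27rt go up with the share within groups (r of 0.979 and 0.97), and Rps4x and Rpl37a go down (-0.944 and -0.942).

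Some genes of the same pathway that the symbol rule leaves out were called lower too, on composition-scaled counts, and their counts are to be read against the 16.3% of all tested genes called lower at week 5 and the 10.5% at week 6. Of the ribosome components with other names, Fau, Rack1 and Rpsa were tested, and 3 of 3 were lower at week 5 and 0 of 3 at week 6, where Rpsa had 211 ± 22.6 CPM (SD, n = 5) on the normal diet and 166 ± 41.7 CPM (n = 3) at week 6, a log2 fold change of -0.35 (adjusted p = 0.0899 by edgeR). Of the translation factors with TOP messages 4 of 17 were lower at week 5 and 3 of 17 at week 6, Eef1b2, Eef1d and Eif3e. Eef1b2, the exchange factor of elongation factor 1A, had 249 ± 20.2 CPM (SD, n = 5) on the normal diet and 195 ± 11.2 CPM (n = 3) at week 6, a log2 fold change of -0.35 (adjusted p = 0.0077 by edgeR). Of the ribosome biogenesis genes 7 of 41 were lower at week 5 and 3 of 41 at week 6, Nop2, Nop10 and Nop16, the last with 33.1 ± 3.35 CPM (SD, n = 5) on the normal diet and 22.6 ± 2.58 CPM (n = 3) at week 6, a log2 fold change of -0.56 (adjusted p = 0.00831 by edgeR). The biogenesis count was near the background at week 5 and below it at week 6. In no list of these were genes called higher.

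Of the genes of mTORC1 and translation control 6 of 20 were lower at week 5 and 2 of 20 at week 6, Larp1 and Eif4e, the latter week near the background of 10.5%. Larp1, the protein that binds the TOP tract, had 185 ± 21.9 CPM (SD, n = 5) on the normal diet and 119 ± 24.3 CPM (n = 3) at week 6, a log2 fold change of -0.63 (adjusted p = 0.00205 by edgeR). Eif4e, the cap-binding protein, had 40.2 ± 3.21 CPM (SD, n = 5) on the normal diet and 31.7 ± 1.54 CPM (n = 3) at week 6, a log2 fold change of -0.34 (adjusted p = 0.0328 by edgeR). The mitochondrial ribosomal proteins, a separate set of nuclear genes that build the ribosome of mitochondria, had 37 of 71 lower at week 5 and 28 of 71 at week 6, with medians of -0.35 and -0.30. Among them Mrpl15 had 60.3 ± 7.13 CPM (SD, n = 5) on the normal diet and 35.9 ± 0.870 CPM (n = 3) at week 6, a log2 fold change of -0.75 (adjusted p = 5.37e-05 by edgeR). The medians of the cytosolic members in these weeks were -0.20 and -0.22, and the difference between the sets was not tested.

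The core members did not all move alike from library to library. The correlation of a core gene with the mean of the other core genes over the 25 libraries had a median of 0.698 and ran from -0.311 (Rpl23a) to 0.951 (Rps18). The lowest 4 were Rpl23a, Rpl13, Rpl4 and Rps20, with -0.311, -0.213, -0.141 and -0.077, and all 4 were among the genes called lower at week 5. Within groups the same 4 went up with the copy share (r of 0.775, 0.875, 0.847 and 0.643), where the core median was -0.548. The part of that share in their low correlations was not tested. Among 6118 genes outside the rule with at least 10 CPM, those most like the core mean over the 25 libraries were Maged1 (Pearson's r of 0.906), Pet100 (0.884), Sec61g (0.873), Selenok (0.87) and Paics (0.87). These values share depth and scaling factors between genes and are given as a description.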

How the data were processed

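The authors deposited whole-number counts per gene symbol for 25 libraries. Per the submitters' processing notes reads were checked with FastQC, trimmed with cutadapt and aligned with STAR 2.7.1a to GRCm39, and the sources used here do not give the counting tool or its treatment of reads with several matches. The tests used edgeR 4.0.16 under R 4.3.3 (trimmed-mean composition scaling, low-count filter, robust quasi-likelihood fit of all 7 groups, 18 residual degrees of freedom, Benjamini-Hochberg adjustment over 11869 genes). The script was tested on simulated data. Levels are composition-scaled CPM. DESeq2 1.42.0, limma 3.58.1, other scalings and filters, added terms and left-out libraries were alternatives.

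The members and gene lists were chosen with earlier results of these data known. Per-library values were given for the 4 most abundant members, the P-stalk, paralogs with their core gene, the 4 largest changes each way at week 6 and by slope, and the 2 smallest p-values per week. Some members that these rules choose enter the counts but are not reported here by name. Others printed were chosen after their values were seen. From each other list the 3 smallest p-values at week 6 were eligible. 3′ ends came from GENCODE vM21, promoters from RefSeq.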

Additional observations from a re-analysis of the deposited data

Results flagged for a closer look

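In 4 of 99 group tests over 33 measures, 1 library lay apart from the others of its group, and chance gives about 1 in 20. Rpl22 had 169.4 CPM in week 1 library 3, the lowest of its group, with the nearest of the others at 187.2 CPM. Week 3 library 4 was the highest of its group for Rps4x, with 90.25 CPM against 62.47 in the next, for Rps27, with 194.2 against 142.3, and for Rpl29, with 43.2 against 34.42. The same library had a retrocopy share of 3.22%, and the other libraries of week 3 had 5.52% to 6.70%. The part of that share in the values was not tested within week 3.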

How the results depend on the processing

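Under library size alone the members called numbered 1, 4 and 1 at weeks 4, 5 and 6, 0 by slope and 1 by any difference, with medians of 0.033 (week 1), -0.043 (week 4), 0.13 (week 5) and 0.077 (week 6). Over nuclear genes only they numbered 0, 3, 1, 4 and 1, with medians of -0.041, 0.12 and 0.061 at weeks 4 to 6, and the 3 at week 5 and the 4 by slope were higher. With size factors from the members they numbered 0, 1, 1, 0 and 1, with medians of 0.022, 0.020, 0.006, -0.014 and 0.020 at weeks 2 to 6, near 0 by construction. Library size and nuclear size reversed Rpl36a at week 5 (0.079 and 0.069), Rpl7 at week 6 (0.031 and 0.011), Rps28 at weeks 5 (0.080 and 0.068) and 6 (0.052 and 0.032), the slope of Rpl7 (0.007 and 0.008) and that of Rpl22 (0.005 and 0.006). Library size reversed Rpl38 at week 6 (0.020). The marker score as a term left 0 calls at weeks 4, 5 and 6, by slope and by any difference, with a median of -0.33 at week 5 (0 of all tested genes higher and 10 lower in that week), and reversed Rpl23a at week 5 (0.23) and the slope of Rps4l (0.011). The causes were not tested.

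Median-of-ratios factors gave 9 by slope and 7 by any difference. No filter gave 1, 15 and 8 at weeks 4 to 6 and 4 by any difference, and a minimum of 5 CPM in 3 libraries 9 at week 6, 8 by slope and 7 by any difference. Fits of only the compared groups gave 0, 16 and 2 at weeks 4 to 6, 1 of the 16 higher. DESeq2 gave 2 at week 3 and 20 by any difference. Weeks as a number gave 9 by slope. The copy share as a term, added after the data were seen, gave 19, 48 and 31 at weeks 4 to 6, 26 by slope and 26 by any difference. In these 3 weeks 459, 2053 and 1653 of all tested genes were then lower. Without normal-diet libraries 1 and 5 the counts were 2, 16 and 9 at weeks 4 to 6 and 7 by any difference. Without normal-diet library 5 and week 4 library 3, also added later, they were 4 at week 4, 9 by slope and 3 by any difference.

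The replicate numbers do not pair the libraries: the mean correlation of deviations was -0.003 for the same number and 0.001 for others, with 14 of 66 same-number pairs over 0.1, and 4 of 25 libraries correlated best with their own number. The replicate block gave 5, 24 and 10 members at weeks 4 to 6, 11 by slope and 7 by any difference.

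Leaving out 1 library at a time gave 0 to 1 members at week 3 (1 without week 6 library 2), 1 to 9 at week 4, 14 to 27 at week 5, 9 to 18 at week 6, 6 to 16 by slope and 6 to 19 by any difference. At week 4 the count was 1, 4 and 5 without week 4 libraries 1, 2 and 3, and 3 and 5 without normal-diet libraries 1 and 2. At week 5 it was 16, 14 and 16 without week 5 libraries 1, 2 and 3, and 15 without normal-diet library 5. At week 6 it was 9 without normal-diet library 1. By slope it was 6 without week 1 library 2, week 2 library 2 or week 6 library 1, 8 without week 1 library 1 or week 5 library 2, and 9 without week 1 library 4, week 2 library 1 or normal-diet library 5. By any difference it was 7 without normal-diet library 1 or 2, 6 without normal-diet library 5, and 7, 7 and 8 without week 5 libraries 1, 2 and 3. No single library turned the sign of a weekly median, which ranged from -0.23 to -0.17 at week 5. Depth limits what can be seen for the members with few counts, such as Rps6, Rps3a2 and Rps23rg1, and the 7 untested genes.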
